A study of Mus musculus with 12 samples.

Results

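The suppressor of cytokine signalling (SOCS) family was taken as the 8 genes whose symbols are Socs1 to Socs7 and Cish, out of 24310 named features measured by RNA sequencing. All 8 were listed in every one of 12 libraries. 7 of them were among the 10886 genes with at least 1 RPKM in at least 4 libraries, which were tested, and Socs5 was not. RPKM divides a gene's reads by transcript length and by the size of the library, so levels can be compared between genes. The libraries came from CMM cells, a GFP-marked mouse acute myeloid leukaemia with inv(16), grown in the spleens of C57BL/6 mice after intravenous transfer. Every mouse carried leukaemia, and treatment began at about 1% GFP+ cells in blood. The mice received 3 intravenous injections, one every other day, of CpG-STAT3dODN, of CpG-scrODN or of PBS, and spleens were collected 1 day after the last. CpG-STAT3dODN joins a CpG oligonucleotide, a ligand of the endosomal receptor TLR9, to a decoy bearing a DNA site that STAT3 binds. CpG-scrODN carries a scrambled sequence in place of the decoy, and PBS is the saline vehicle. The question set by the series was how STAT3 inhibition combined with TLR9 stimulation acts on leukaemic cell differentiation.

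Each group held 4 libraries of c-Kit+ cells enriched from spleen suspensions, and the series design text adds sorting of GFP+/c-Kit+ cells. The words in the files' column headers did not match the labels in any of the 12 libraries. The word was SCR for libraries labelled CpG-STAT3dODN, PBS for libraries labelled CpG-scrODN and DEC for libraries labelled PBS. Groups below follow the labels, and which treatment a difference belongs to cannot be told from these sources. CMM is a single transplanted leukaemia model, the recipients kept their own spleen cells, and age and sex of the mice were not given in the sources used here. Whether each library came from its own mouse is not stated, so the spread behind every p-value is that between these samples and may be technical.

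SOCS proteins are feedback inhibitors of cytokine signalling. Cytokine receptors activate JAK kinases, JAK kinases activate STAT transcription factors, and STAT factors raise transcription of several SOCS genes, whose products then bind receptors or JAK kinases through an SH2 domain. The shared SOCS box recruits elongins and Cullin-5, which form a ubiquitin ligase that marks bound proteins for degradation. In blood-forming cells the family limits signals from interferons, interleukins, growth factors and c-Kit.

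Because the decoy oligonucleotide carries a STAT binding site, promoters of the family were searched for such sites. RefSeq promoter windows (build GRCm38.p6, which mm10 denotes) were found for 4 of the 8 members, Cish, Socs1, Socs3 and Socs4, each running from 250 bases before the transcription start to 50 after it. The STAT site TTCNNNGAA and the interferon response element core GAAANNGAA were searched on both strands. The first occurred in 8.3% of 32851 promoter windows and the second in 8.56%. The 3 windows with a match are shown from 250 bases before the start to 30 after it, with matches in capitals. They lie at chr9:107296409-107296688 on the plus strand for Cish, chr16:10785507-10785786 on the minus strand for Socs1 and chr11:117969337-117969616 on the minus strand for Socs3, whose window follows a transcript start inside the annotated gene.
Cish: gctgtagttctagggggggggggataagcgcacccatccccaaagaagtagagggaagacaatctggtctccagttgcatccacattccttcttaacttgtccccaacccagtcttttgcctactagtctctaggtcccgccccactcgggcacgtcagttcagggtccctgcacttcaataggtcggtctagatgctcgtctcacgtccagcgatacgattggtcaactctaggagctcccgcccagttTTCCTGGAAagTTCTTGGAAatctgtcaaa
Socs1: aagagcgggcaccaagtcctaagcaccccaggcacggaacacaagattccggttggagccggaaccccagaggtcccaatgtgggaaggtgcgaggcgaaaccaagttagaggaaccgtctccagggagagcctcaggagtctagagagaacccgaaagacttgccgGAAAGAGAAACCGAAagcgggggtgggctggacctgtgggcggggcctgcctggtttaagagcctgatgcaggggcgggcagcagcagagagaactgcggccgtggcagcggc
Socs3: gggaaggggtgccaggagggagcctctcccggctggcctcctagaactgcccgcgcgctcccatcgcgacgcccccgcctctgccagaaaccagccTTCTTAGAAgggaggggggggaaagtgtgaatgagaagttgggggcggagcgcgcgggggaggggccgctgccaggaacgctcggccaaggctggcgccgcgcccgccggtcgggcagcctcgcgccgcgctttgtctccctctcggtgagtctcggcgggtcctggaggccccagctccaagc

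Counted from 1 at the transcription start, Cish held 2 STAT sites, TTCCTGGAA at 1 to 9 and TTCTTGGAA at 12 to 20. A window with 2 or more STAT sites was found in 0.457% of all promoter windows. Socs3 held 1 STAT site, TTCTTAGAA at -154 to -146. Socs1 held no STAT site and 2 interferon response element cores, GAAAGAGAA at -83 to -75 and GAAACCGAA at -77 to -69, which overlap by 3 bases. Windows with 2 or more such cores made up 0.624% of the total. Socs4 held neither motif. These matches describe letters in the windows, and no binding was measured.

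Depth was estimated at 31440000 to 36250000 reads per library, so 1 RPKM stood for at least about 31.4 reads per kilobase. In 2 libraries, CpG-STAT3dODN replicate 4 and PBS replicate 4, the immediate-early gene Fos was at 5.91 RPKM and at 12.9 RPKM, and it was at 486 to 1160 RPKM in the other 10. The c-Kit gene Kit was at 25.7 to 51.1 RPKM in libraries labelled CpG-STAT3dODN, 28.3 to 40.5 RPKM in libraries labelled CpG-scrODN and 10.5 to 37.8 RPKM in libraries labelled PBS. All 10 leukaemia and progenitor markers were at 1 RPKM or more in every library, and 5 of the 10 were called lower in CpG-scrODN minus PBS and 1 in CpG-STAT3dODN minus PBS. That 1 was Ptprc, which is also counted among the other inhibitors below. Over all tested genes, 4.15% were called in CpG-scrODN minus PBS and 1.86% in CpG-STAT3dODN minus PBS. Of those calls, 440 of 452 and 199 of 202 were lower, so lower marker calls follow the general pattern of these libraries. Kit differed by 0.75 in CpG-scrODN minus PBS and 0.84 in CpG-STAT3dODN minus PBS on the log2(RPKM + 1) scale and was not called. Cd34, also not called, was at 8.7 to 43.1 RPKM with the label CpG-STAT3dODN, 24.5 to 38 with CpG-scrODN and 5.15 to 33.8 with PBS. The 16 B-cell markers summed to 30.9 to 133 RPKM in libraries labelled CpG-STAT3dODN, 13.1 to 34.1 RPKM in libraries labelled CpG-scrODN and 231 to 840 RPKM in libraries labelled PBS, and none of the 16 was at 0 in any library. Limma also called 2 of 4 tested plasma cell markers and 1 of 10 monocyte and macrophage markers lower in CpG-scrODN minus PBS, and 1 plasma cell marker and 0 monocyte markers in CpG-STAT3dODN minus PBS. Neutrophil, erythroid and NK-cell markers gave 0 calls in every comparison, with 5 of 10 neutrophil markers, 0 of 9 erythroid markers and the 1 tested NK-cell marker at an unadjusted p under 0.05 in CpG-scrODN minus PBS. The same held there for 1702 of 10886 tested genes. In bulk RNA, fewer cells of a type and less RNA per cell cannot be told apart.

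Cish and Socs2 were the most abundant members, and Socs5 was the least. Over the 12 libraries the mean level was 31.4 RPKM for Cish, 27.3 for Socs2, 15 for Socs1, 8.5 for Socs4, 5.41 for Socs3, 3.84 for Socs7, 2.7 for Socs6 and 0.42 for Socs5. Cish exceeded Socs2 in 7 of 12 libraries, so the order of these neighbours varied between libraries. Each later neighbour in the order held its place in 10 to 12 of 12 libraries, and Socs6 exceeded Socs5 in all 12. Cish had a higher mean than 80.3% of tested genes and Socs6 had a higher mean than 15.2%. Cish and Socs2 together made up 54.7 to 76.1% of the summed family level in libraries labelled CpG-STAT3dODN, 59.1 to 66.1% in libraries labelled CpG-scrODN and 54 to 66.1% in libraries labelled PBS.

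**Figure D1:**
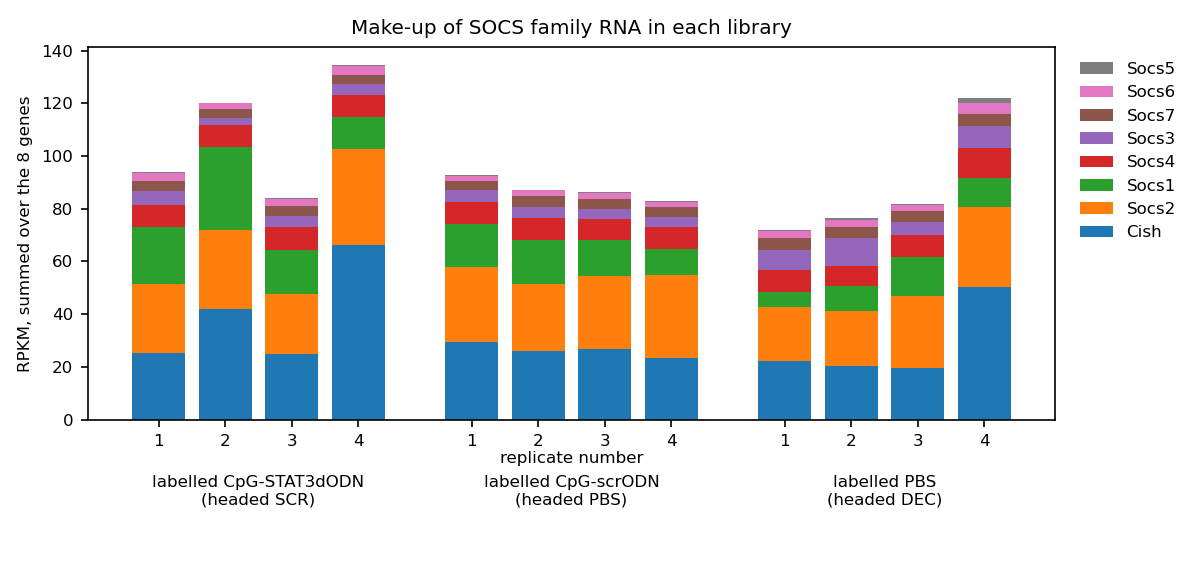
Level of each family member (RPKM, stacked) in each of the 12 libraries, grouped by label, with replicate numbers on the horizontal axis. The sums run from 84 to 135 RPKM in libraries labelled CpG-STAT3dODN, 82.8 to 92.8 in libraries labelled CpG-scrODN and 71.9 to 122 in libraries labelled PBS, and Cish and Socs2 form 54 to 76.1% of each bar.

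Members differed widely in how much they varied. The highest library was 5.81 times the lowest for Socs1, 4.15 times for Socs3 and 3.35 times for Cish, against 1.46 times for Socs4 and 1.37 times for Socs7. Within labelled groups the residual SD on the log2(RPKM + 1) scale was 0.53 for Cish and 0.48 for Socs1, larger than in 93.8% and 91.9% of tested genes. It was 0.09 for Socs7 and 0.12 for Socs4, larger than in 7.03% and 19.8%. On this scale Socs4 and Socs7 were thus among the steadier genes, and Cish and Socs1 among the more variable, with no match on level. For Cish the SD was 0.66 with the label CpG-STAT3dODN, 0.13 with CpG-scrODN and 0.62 with PBS. Both groups of larger SD held a library low in Fos.

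No tested member passed limma at an adjusted p under 0.05 in any of the 3 comparisons. For CpG-scrODN minus PBS, 0 of 7 were called, against 4.15% of all tested genes, and 1 of 7 had an unadjusted p under 0.05, against 1702 of 10886 genes. For CpG-STAT3dODN minus PBS, 0 of 7 were called, against 1.86% of all genes, and 2 of 7 had an unadjusted p under 0.05, against 1023 of 10886 genes. For CpG-STAT3dODN minus CpG-scrODN, 0 of 7 members were called, against 0% of all genes, and 0 of 7 had an unadjusted p under 0.05, against 295 of 10886 genes. The first 2 comparisons share the PBS libraries. Of all 8 members, 3 had an exact permutation p under 0.05 in CpG-scrODN minus PBS, 0 in CpG-STAT3dODN minus PBS and 1 in CpG-STAT3dODN minus CpG-scrODN, with 4 libraries a group. At that group size only groups that do not overlap give such a p. These counts therefore repeat the overlap counts that follow, with the untested Socs5 added in CpG-scrODN minus PBS, and are no separate evidence. The groups did not overlap for 2 of the 7 tested members in CpG-scrODN minus PBS, where the same held for 13.9% of all tested genes. In CpG-STAT3dODN minus PBS this held for 0 of 7 against 5.04% of genes, and in CpG-STAT3dODN minus CpG-scrODN for 1 of 7 against 4.25%. On the log2(RPKM + 1) scale the median member difference was -0.11 for CpG-scrODN minus PBS, beside -0.05 over all tested genes. It was -0.06 beside -0.01 for CpG-STAT3dODN minus PBS, and 0.05 beside 0.03 for CpG-STAT3dODN minus CpG-scrODN.

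Of the genome-wide calls, 12 were higher and 440 lower in libraries labelled CpG-scrODN than in those labelled PBS, and quantile normalization gave 75 higher and 318 lower. Of the calls in CpG-STAT3dODN minus PBS, 3 were higher and 199 lower, and quantile normalization gave 11 higher and 173 lower. The number of higher calls changed by more than 1.5 times when some libraries were left out. Without PBS replicate 3 there were 104 higher and 456 lower for CpG-scrODN minus PBS, and 30 higher and 185 lower for CpG-STAT3dODN minus PBS. Without CpG-STAT3dODN replicate 4 there were 56 higher and 504 lower for CpG-scrODN minus PBS, and 12 higher and 206 lower for CpG-STAT3dODN minus PBS. Without both libraries low in Fos there were 111 higher and 575 lower for CpG-scrODN minus PBS, and 42 higher and 295 lower for CpG-STAT3dODN minus PBS. Single libraries moved these totals by more than 1.5 times: the 452 calls of CpG-scrODN minus PBS were 279 without CpG-scrODN replicate 3, and the 202 of CpG-STAT3dODN minus PBS were 131 without PBS replicate 1 and 121 without CpG-STAT3dODN replicate 2.

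**Figure D2:**
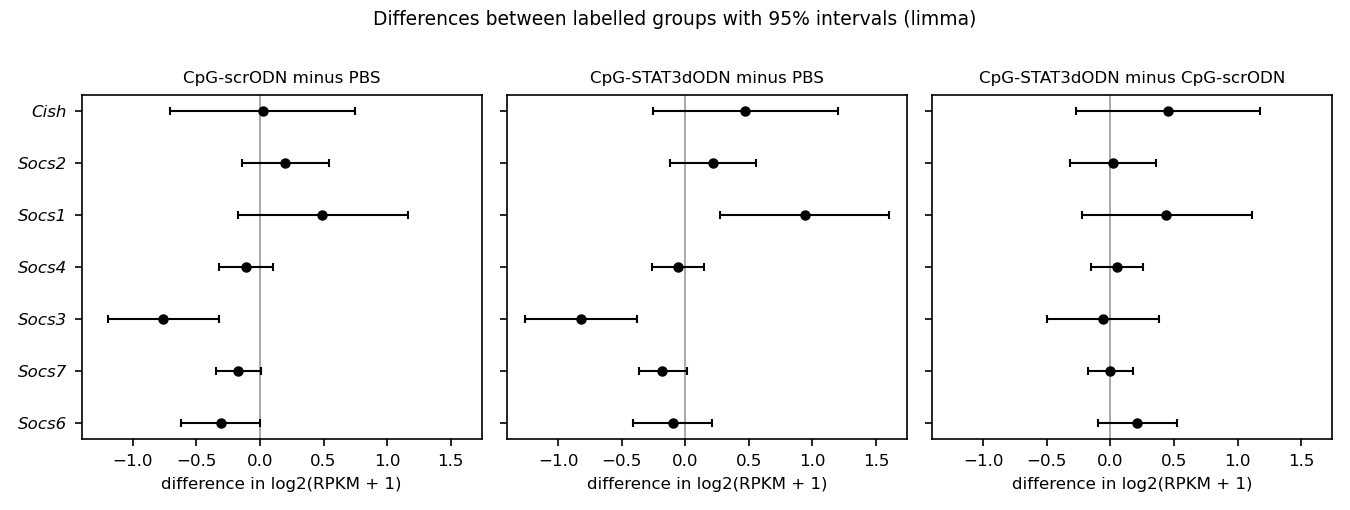
Difference in log2(RPKM + 1) for the 7 tested members in each comparison of labelled groups, with 95% intervals from limma. Socs3 lies at -0.76 and -0.82 in the comparisons with PBS, with intervals below 0, and Socs1 lies at 0.94 in CpG-STAT3dODN minus PBS, but no adjusted p is under 0.05.

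Cish, which encodes CIS, an inhibitor induced by STAT5 downstream of cytokines such as erythropoietin and interleukin-2, lies at chr9:107296659-107302784 (plus strand, RefSeq GRCm38.p6, as all positions here). Its level was 25.3, 42.1, 24.8 and 66.1 RPKM in replicates 1 to 4 labelled CpG-STAT3dODN, 29.4, 26.2, 26.9 and 23.4 in those labelled CpG-scrODN, and 22.1, 20.5, 19.7 and 50.3 in those labelled PBS. The highest values were replicate 4 of the libraries labelled CpG-STAT3dODN and replicate 4 of those labelled PBS, the same libraries that were low in Fos, and all groups overlapped. The mean was 39.6 ± 19.4 RPKM in libraries labelled CpG-STAT3dODN, 26.5 ± 2.47 in those labelled CpG-scrODN and 28.2 ± 14.8 in those labelled PBS (SD, n = 4 each). The log2 difference was 0.47 (95% interval -0.25 to 1.2, limma adjusted p = 0.868) for CpG-STAT3dODN minus PBS, 0.02 (-0.71 to 0.75, adjusted p = 0.981) for CpG-scrODN minus PBS and 0.45 (-0.27 to 1.18, adjusted p = 0.96) for CpG-STAT3dODN minus CpG-scrODN. None passed, and the intervals reach to 1.2 and 1.18 in the comparisons of CpG-STAT3dODN. Without the 2 libraries low in Fos the differences were 0.50 for CpG-STAT3dODN minus PBS (limma adjusted p = 0.198), 0.33 for CpG-scrODN minus PBS (adjusted p = 0.318) and 0.17 for CpG-STAT3dODN minus CpG-scrODN (adjusted p = 1).

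Socs2, a STAT5 target known as a brake on growth hormone receptor signalling, lies at chr10:95383903-95417321 (minus strand). It was at 26.1, 30, 23 and 36.4 RPKM in replicates 1 to 4 labelled CpG-STAT3dODN, 28.6, 25.4, 27.4 and 31.4 in those labelled CpG-scrODN, and 20.7, 20.7, 27.1 and 30.3 in those labelled PBS. The groups overlapped, and replicate 4 of libraries labelled CpG-STAT3dODN was the highest of the 12. The log2 difference was 0.22 (95% interval -0.12 to 0.56, limma adjusted p = 0.872) for CpG-STAT3dODN minus PBS, 0.2 (-0.14 to 0.54, adjusted p = 0.566) for CpG-scrODN minus PBS and 0.02 (-0.32 to 0.36, adjusted p = 0.992) for CpG-STAT3dODN minus CpG-scrODN, and none passed.

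Socs1 encodes the JAK kinase inhibitor that limits interferon signalling, with a kinase inhibitory region shared among the family only with Socs3, and lies at chr16:10783808-10785536 (minus strand). Socs1 was at 21.7, 31.5, 16.6 and 12.2 RPKM in replicates 1 to 4 labelled CpG-STAT3dODN, 16.4, 16.5, 13.9 and 10.1 in those labelled CpG-scrODN, and 5.43, 9.31, 14.8 and 11.2 in those labelled PBS. Replicate 3 labelled PBS, at 14.8, was above replicate 4 of libraries labelled CpG-STAT3dODN at 12.2, so the groups overlapped. The mean was 20.5 ± 8.29 RPKM in libraries labelled CpG-STAT3dODN, 14.2 ± 3 in those labelled CpG-scrODN and 10.2 ± 3.91 in those labelled PBS (SD, n = 4 each). For CpG-STAT3dODN minus PBS the log2 difference was 0.94 ± 0.3 (SE, 95% interval 0.27 to 1.6, limma adjusted p = 0.226), with an exact permutation p of 0.0571. For CpG-scrODN minus PBS it was 0.49 (95% interval -0.17 to 1.16, limma adjusted p = 0.466), and for CpG-STAT3dODN minus CpG-scrODN it was 0.44 (-0.22 to 1.11, adjusted p = 0.96). Libraries with the lowest Kit, PBS replicates 1 and 2 at 10.5 and 12.8 RPKM, also had the lowest Socs1, and the part of Kit level in the difference was not tested. Without the 2 libraries low in Fos the difference for CpG-STAT3dODN minus PBS was 1.21 (limma adjusted p = 0.0883).

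Socs3 encodes the inhibitor of signalling through gp130 and the G-CSF receptor, is induced by STAT3, and lies at chr11:117966079-117970336 (minus strand). Replicates 1 to 4 held 5.11, 2.56, 4.34 and 4.18 RPKM in libraries labelled CpG-STAT3dODN, 4.75, 4.47, 3.76 and 3.75 in those labelled CpG-scrODN, and 7.72, 10.6, 5.02 and 8.58 in those labelled PBS. Every library labelled CpG-scrODN was below every library labelled PBS, whereas replicate 3 labelled PBS, at 5.02, was below replicate 1 labelled CpG-STAT3dODN. The mean was 4.05 ± 1.07 RPKM in libraries labelled CpG-STAT3dODN, 4.18 ± 0.507 in those labelled CpG-scrODN and 7.99 ± 2.33 in those labelled PBS (SD, n = 4 each). For CpG-scrODN minus PBS the log2 difference was -0.76 ± 0.2 (SE, 95% interval -1.2 to -0.32, limma adjusted p = 0.0624), with an exact permutation p of 0.0286, the smallest that 4 against 4 libraries allow. For CpG-STAT3dODN minus PBS it was -0.82 ± 0.2 (SE, 95% interval -1.26 to -0.38, limma adjusted p = 0.0777), with an exact permutation p of 0.0571. For CpG-STAT3dODN minus CpG-scrODN it was -0.06 (95% interval -0.5 to 0.38, limma adjusted p = 0.97).

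Whether Socs3 passed the threshold turned on single libraries. Its log2 difference stayed below 0 in all 20 alternatives of each comparison with PBS. It ran from -0.94 to -0.623 for CpG-scrODN and from -1 to -0.662 for CpG-STAT3dODN. Without replicate 3 labelled PBS, Socs3 passed in both comparisons with PBS, at -0.94 (limma adjusted p = 0.0128) for CpG-scrODN and -1 (adjusted p = 0.0166) for CpG-STAT3dODN. Without replicate 2 labelled CpG-STAT3dODN, whose Socs3 was the lowest of all, Socs3 passed for CpG-scrODN minus PBS at an adjusted p of 0.0353. Over all settings the adjusted p ranged from 0.0128 to 0.197 for CpG-scrODN minus PBS and from 0.0166 to 0.272 for CpG-STAT3dODN minus PBS. Libraries labelled PBS also had the higher sums of B-cell and monocyte markers, and the part of these cells in the Socs3 values was not tested. The 12 monocyte and macrophage markers summed to 83.7 to 159 RPKM in libraries labelled CpG-STAT3dODN, 76.8 to 118 in libraries labelled CpG-scrODN and 163 to 227 in libraries labelled PBS.

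**Figure D3:**
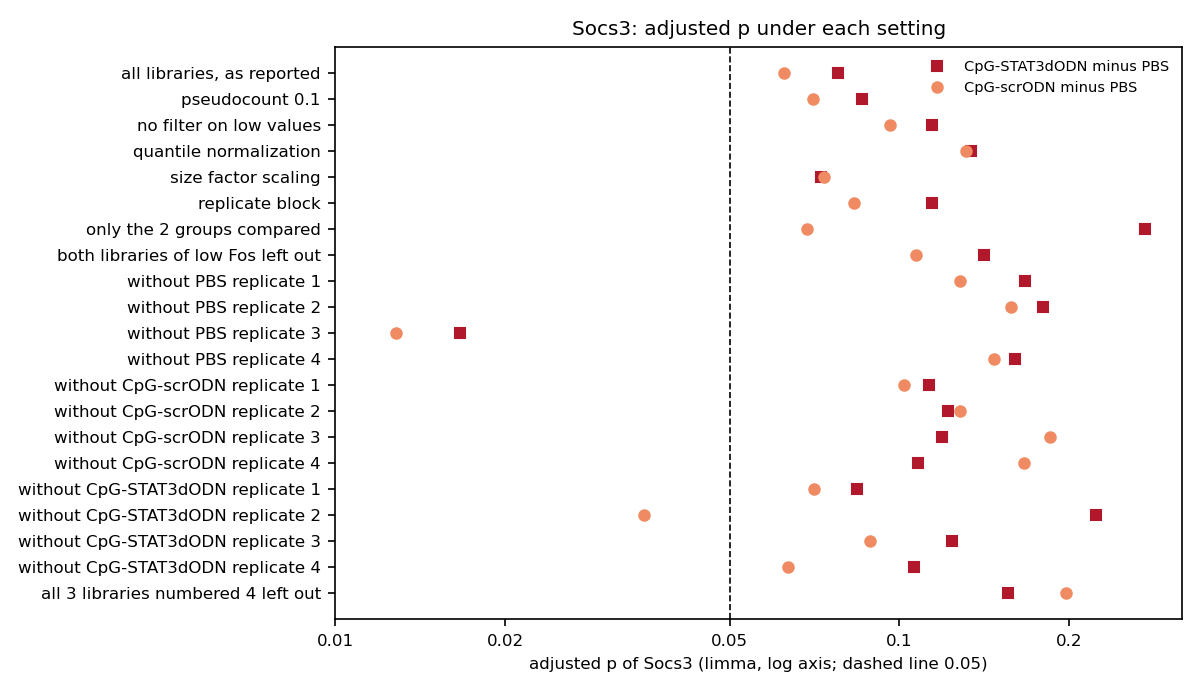
Limma adjusted p of Socs3 (log axis) for the comparisons of CpG-STAT3dODN and CpG-scrODN with PBS, 1 row per setting, with the 0.05 threshold dashed. 3 points lie left of the threshold, 2 of them without PBS replicate 3 and 1 without CpG-STAT3dODN replicate 2, and the other points lie right of it.

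The ratio of Socs1 to Socs3, chosen after the values were seen and not tested, was 4.24, 12.3, 3.83 and 2.93 in replicates 1 to 4 labelled CpG-STAT3dODN, 3.46, 3.69, 3.68 and 2.7 in those labelled CpG-scrODN, and 0.703, 0.875, 2.95 and 1.3 in those labelled PBS. PBS replicate 3, at 2.95, lay within the range of both other groups. The other 3 libraries labelled PBS lay below all 8 of the remaining libraries.

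Socs4, related to Socs5 and reported to act on the epidermal growth factor receptor, lies at chr14:47276920-47296102 (plus strand). Its level was 8.44, 8.35, 8.62 and 8.44 RPKM in replicates 1 to 4 labelled CpG-STAT3dODN, 8.04, 8.28, 7.94 and 8.25 in those labelled CpG-scrODN, and 8.43, 7.63, 8.54 and 11.1 in those labelled PBS. Every library labelled CpG-STAT3dODN was above every library labelled CpG-scrODN, the nearest at 8.35 and 8.28 RPKM, and the remaining pairs of groups overlapped. The log2 difference was 0.05 (95% interval -0.15 to 0.26, limma adjusted p = 0.961), with an exact permutation p of 0.0286, for CpG-STAT3dODN minus CpG-scrODN. This difference was 0.0237 with size factors and 0.0052 with quantile normalization, and the exact test used values without such scaling. Against PBS the log2 difference was -0.06 (95% interval -0.26 to 0.15, limma adjusted p = 1) for CpG-STAT3dODN, 0.04 without the 2 libraries low in Fos, and -0.11 (-0.32 to 0.1, adjusted p = 0.603) for CpG-scrODN.

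Socs5, also reported as a regulator of the epidermal growth factor receptor and of interleukin-4 signalling, lies at chr17:87107278-87137647 (plus strand) and reached 1 RPKM in 1 library. Values were 0.385, 0.194, 0.212 and 0.546 RPKM in replicates 1 to 4 labelled CpG-STAT3dODN, 0.206, 0.186, 0.114 and 0.151 in those labelled CpG-scrODN, and 0.512, 0.473, 0.436 and 1.63 in those labelled PBS. All libraries labelled CpG-scrODN were below all libraries labelled PBS, with an exact permutation p of 0.0286 on the log2(RPKM + 1) scale and a difference of -0.55. Without a filter on low values, over 19308 genes, limma gave that difference an adjusted p of 0.152. For CpG-STAT3dODN minus PBS the difference was -0.36 (exact permutation p = 0.143), and for CpG-STAT3dODN minus CpG-scrODN it was 0.19 (exact permutation p = 0.0571).

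Socs6, which can bind activated c-Kit and limit its signalling, lies at chr18:88865169-88894364 (minus strand). It was at 2.89, 2.13, 2.65 and 3.46 RPKM in replicates 1 to 4 labelled CpG-STAT3dODN, 2.06, 2.4, 2.47 and 2.07 in those labelled CpG-scrODN, and 2.66, 2.79, 2.57 and 4.3 in those labelled PBS. All libraries labelled CpG-scrODN lay below all those labelled PBS, and the other pairs of groups overlapped. For CpG-scrODN minus PBS the log2 difference was -0.31 (95% interval -0.62 to 0, limma adjusted p = 0.321), with an exact permutation p of 0.0286. It was -0.1 (-0.41 to 0.21, limma adjusted p = 1) for CpG-STAT3dODN minus PBS and 0.21 (-0.1 to 0.52, limma adjusted p = 0.96) for CpG-STAT3dODN minus CpG-scrODN.

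Socs7, an SH2 protein reported to bind Nck and to limit insulin signalling, lies at chr11:97362292-97398542 (plus strand). It was at 4.06, 3.46, 3.74 and 3.32 RPKM in replicates 1 to 4 labelled CpG-STAT3dODN, 3.29, 3.83, 3.77 and 3.71 in those labelled CpG-scrODN, and 4.36, 4.31, 3.8 and 4.5 in those labelled PBS. Of the 4 libraries labelled PBS, 3 were above every other library, and replicate 3 at 3.8 lay within the range of the others, so the groups overlapped. The log2 difference was -0.18 (95% interval -0.36 to 0.01, limma adjusted p = 0.562) for CpG-STAT3dODN minus PBS and -0.17 (-0.35 to 0.01, adjusted p = 0.349) for CpG-scrODN minus PBS, each with an exact permutation p of 0.0571. For CpG-STAT3dODN minus CpG-scrODN it was 0 at 2 decimals (95% interval -0.18 to 0.18, limma adjusted p = 0.997).

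**Figure D4:**
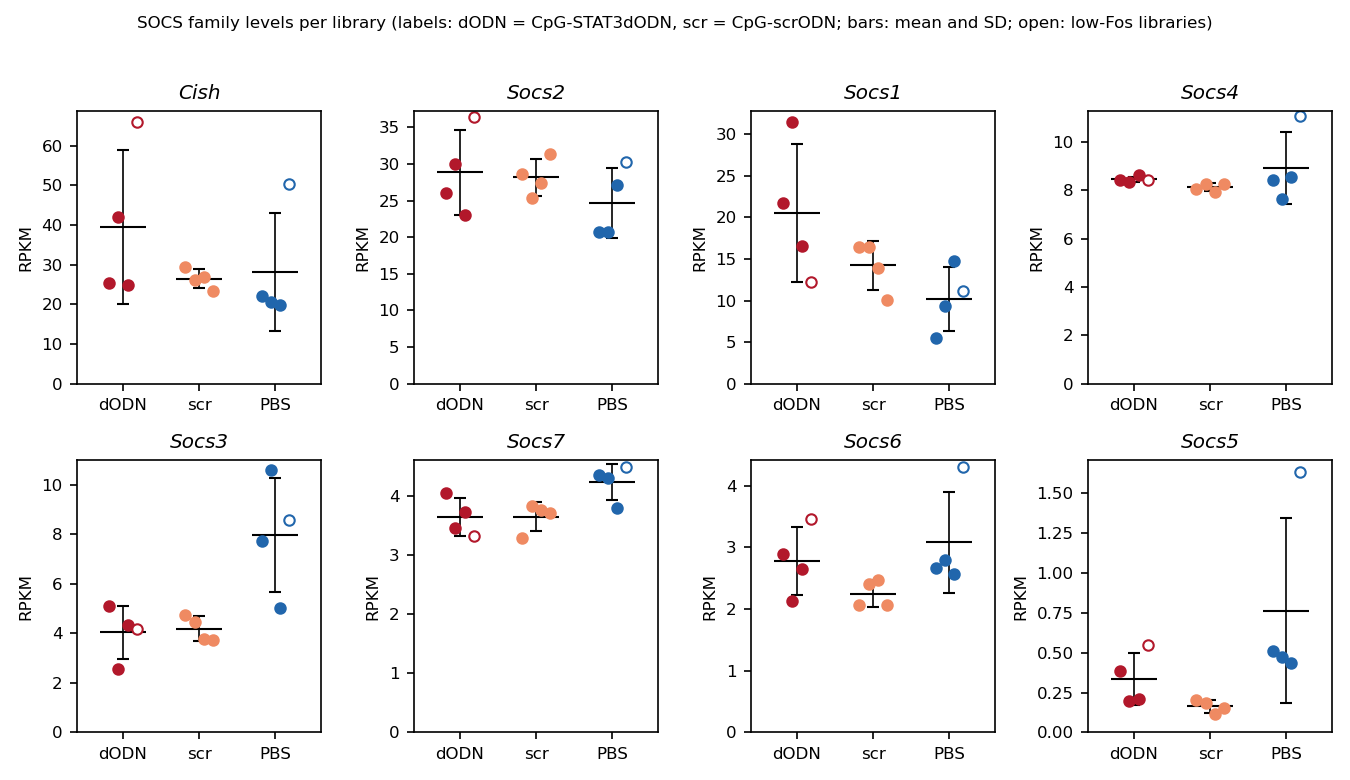
RPKM of each of the 8 members in the 12 libraries, with 4 points per labelled group, the mean and SD as bars, and open points for the 2 libraries low in Fos. Socs3 is above 5 RPKM in all libraries labelled PBS and between 3.75 and 4.75 RPKM in those labelled CpG-scrODN, while Socs4 and Socs7 stay within a narrow range.

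The 2 libraries low in Fos were also at the ends of the range of several members. PBS replicate 4 was the highest of the 12 for Socs4, Socs5, Socs6 and Socs7 and second for Cish and Socs3. CpG-STAT3dODN replicate 4 was the highest for Socs2 and Cish and second for Socs5 and Socs6. Counted from the highest, the same library ranked 11 of 12 for Socs7, at 3.32 RPKM, and 9 for Socs3, at 4.18 RPKM. The 2 libraries thus lay apart for these 2 members. Socs1 was at 12.2 RPKM in CpG-STAT3dODN replicate 4 and 11.2 RPKM in PBS replicate 4, inside the range of 5.43 to 31.5 RPKM of the other 10. With both left out, no member was called in any comparison.

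The rest of the pathway was read from lists of its genes. Over all tested genes, 4.15% were called in CpG-scrODN minus PBS and 1.86% in CpG-STAT3dODN minus PBS. Of those calls, 440 of 452 and 199 of 202 were lower, so calls below PBS were the general pattern of these libraries. Of 4 tested JAK kinases, 0 were called in each comparison, and 0 had an unadjusted p under 0.05. Jak2, the kinase of the erythropoietin and thrombopoietin receptors, averaged 32.6 ± 5.5 RPKM in libraries labelled CpG-STAT3dODN, 30.1 ± 2.63 in those labelled CpG-scrODN and 26.4 ± 6.76 in those labelled PBS (SD, n = 4 each). Of 6 tested STAT factors out of 7, limma called 0 in each comparison, with 2, 2 and 0 at an unadjusted p under 0.05 in CpG-scrODN minus PBS, CpG-STAT3dODN minus PBS and CpG-STAT3dODN minus CpG-scrODN. Stat5a, which acts downstream of c-Kit and erythropoietin, averaged 42.7 ± 8.93 RPKM in libraries labelled CpG-STAT3dODN, 38.8 ± 2.81 in those labelled CpG-scrODN and 34.7 ± 5.66 in those labelled PBS (SD, n = 4 each). Stat5b averaged 30.8 ± 6.55 RPKM with the label CpG-STAT3dODN, 34.4 ± 1.62 with CpG-scrODN and 28.1 ± 4.84 with PBS (SD, n = 4 each). The list median was 0.02 for CpG-STAT3dODN minus PBS and -0.1 for CpG-scrODN minus PBS for the STAT factors. For the JAK kinases it was 0.03 for CpG-STAT3dODN minus PBS and 0 for CpG-scrODN minus PBS.

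Among cytokine receptors, 23 of 30 listed were tested, and calls were all lower than in libraries labelled PBS. Nearly all calls over the whole set of tested genes were lower too, 440 of 452 for CpG-scrODN and 199 of 202 for CpG-STAT3dODN. The shares called there were 4.15% and 1.86%. In CpG-scrODN minus PBS 5 fell and 0 rose, and in CpG-STAT3dODN minus PBS 1 fell, with 0 called in CpG-STAT3dODN minus CpG-scrODN and 1 at an unadjusted p under 0.05. Il21r, a receptor chain of lymphocytes, averaged 2.22 ± 1.88 RPKM in libraries labelled CpG-STAT3dODN, 0.783 ± 0.268 in those labelled CpG-scrODN and 9.88 ± 5.9 in those labelled PBS (SD, n = 4 each). Its log2(RPKM + 1) difference was -1.79 for CpG-STAT3dODN minus PBS (limma adjusted p = 0.0365, called in 8 of 20 alternatives, where p reached 0.167) and -2.49 for CpG-scrODN minus PBS (adjusted p = 0.00263, called in 20 of 20). For CpG-scrODN minus PBS, the interleukin-2 receptor chain Il2rb fell by 1.24 (limma adjusted p = 0.0142, called in 19 of 20 alternatives), the interleukin-6 receptor chain Il6ra fell by 0.64 (adjusted p = 0.0238, called in 12 of 20) and the GM-CSF receptor chain Csf2ra fell by 0.51 (adjusted p = 0.0384, called in 7 of 20, where p reached 0.113). The fifth was the interferon receptor chain Ifnar2, named after its values were seen, at -0.43 (limma adjusted p = 0.0216, called in 15 of 20). Il2rb averaged 0.71 RPKM with the label CpG-scrODN, under the filter level of 1 RPKM as Il21r was, and 3.21 with PBS. The list median was -0.25 for CpG-STAT3dODN minus PBS and -0.47 for CpG-scrODN minus PBS. B-cell markers stood apart in the same libraries, with 15 of 15 tested markers called lower in CpG-scrODN minus PBS and 14 of 15 in CpG-STAT3dODN minus PBS. Of the 16 listed, 15 to 16 reached 1 RPKM in libraries labelled PBS, 5 to 10 with CpG-scrODN and 9 to 15 with CpG-STAT3dODN. Entry to the tested set through libraries labelled PBS favours calls lower than PBS, so these counts are no separate evidence. The 9 T-cell markers summed to 3.06 to 6.59 RPKM in libraries labelled CpG-STAT3dODN, 2.71 to 5.59 in libraries labelled CpG-scrODN and 17.6 to 59.4 in libraries labelled PBS. All 3 tested T-cell markers were called lower in both comparisons with PBS. Of the 9, 3 to 7 reached 1 RPKM in libraries labelled PBS, 0 to 1 with CpG-scrODN and 0 to 2 with CpG-STAT3dODN. The T-cell markers thus entered the tested set mainly through libraries labelled PBS, which favours calls lower than PBS. The part of lymphocytes in the receptor levels was not tested.

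Of the other inhibitors of the pathway, 15 were tested, and 3 fell in CpG-scrODN minus PBS and 2 in CpG-STAT3dODN minus PBS, with 0 called in CpG-STAT3dODN minus CpG-scrODN and 1 at an unadjusted p under 0.05. Over all tested genes, 4.15% and 1.86% were called in the comparisons of CpG-scrODN and CpG-STAT3dODN with PBS. Ptprc, the CD45 phosphatase of blood cells, averaged 9.63 ± 2.15 RPKM in libraries labelled CpG-STAT3dODN, 6.29 ± 1.57 in those labelled CpG-scrODN and 37.6 ± 10.1 in those labelled PBS (SD, n = 4 each). Its difference was -1.85 for CpG-STAT3dODN minus PBS (limma adjusted p = 0.000818) and -2.4 for CpG-scrODN minus PBS (adjusted p = 8.58e-05), and it was called in all 20 alternatives of both. Ptpn1, the phosphatase PTP1B, averaged 16.2 ± 1.96 RPKM with the label CpG-STAT3dODN, 14.2 ± 0.571 with CpG-scrODN and 22.8 ± 2.45 with PBS (SD, n = 4 each). Its difference was -0.47 for CpG-STAT3dODN minus PBS (limma adjusted p = 0.0301, called in 9 of 20 alternatives, where p reached 0.167) and -0.64 for CpG-scrODN minus PBS (adjusted p = 0.00243, called in 20 of 20). Cblb, a ubiquitin ligase of lymphocyte signalling, fell by 1.49 in CpG-scrODN minus PBS (limma adjusted p = 0.0245, called in 14 of 20). B-cell and T-cell markers, given above, were lower in the same comparisons, and their part was not tested. The list median was -0.12 for CpG-STAT3dODN minus PBS and -0.25 for CpG-scrODN minus PBS.

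The ligase partners of the SOCS box, the elongins, cullin and ring proteins, gave 0 calls among 7 tested genes in every comparison, with 0 at an unadjusted p under 0.05 and list medians of -0.04 for CpG-STAT3dODN minus PBS and -0.08 for CpG-scrODN minus PBS. Among SOCS box relatives, 12 of 16 were tested and 1 was called, Asb2, which fell by 1.32 in CpG-scrODN minus PBS (limma adjusted p = 0.0187, called in 16 of 20 alternatives). Asb2 averaged 0.632 RPKM with the label CpG-scrODN, under the filter level of 1 RPKM, and 3.32 with PBS. The median of these relatives was 0.01 for CpG-STAT3dODN minus PBS, with 0 called and 1 at an unadjusted p under 0.05, and -0.16 for CpG-scrODN minus PBS. Of 20 STAT-induced genes 17 were tested, and 2 fell in CpG-scrODN minus PBS and 1 in CpG-STAT3dODN minus PBS. The shares called over all tested genes in these comparisons were 4.15% and 1.86%. The list median was -0.01 for CpG-STAT3dODN minus PBS and -0.09 for CpG-scrODN minus PBS. Without the 2 libraries low in Fos, 1 was called for CpG-STAT3dODN minus PBS, which was not Cebpd (adjusted p = 0.0978 there), and 4 for CpG-scrODN minus PBS. Cebpd, a transcription factor that STAT3 induces, averaged 1.72 ± 0.344 RPKM in libraries labelled CpG-STAT3dODN, 1.07 ± 0.269 in those labelled CpG-scrODN and 3.34 ± 0.686 in those labelled PBS (SD, n = 4 each). Its difference was -0.67 for CpG-STAT3dODN minus PBS (limma adjusted p = 0.0354, called in 4 of 20 alternatives, where p reached 0.116) and -1.07 for CpG-scrODN minus PBS (adjusted p = 0.00113, called in 20 of 20). Bcl6, a transcriptional repressor of germinal centre B cells, fell by 1.07 in CpG-scrODN minus PBS (limma adjusted p = 0.012, called in 20 of 20). Bcl6 averaged 0.499 RPKM with the label CpG-scrODN, under the filter level of 1 RPKM, and 2.27 with PBS. Of 20 cytokine genes 6 were tested and 1 was called, Il12a, the interleukin-12 p35 subunit. Il12a averaged 0.636 ± 0.148 RPKM with the label CpG-STAT3dODN, 0.416 ± 0.164 with CpG-scrODN and 1.8 ± 0.409 with PBS (SD, n = 4 each). It thus passed the filter on low values through libraries labelled PBS alone, which favours calls lower than PBS. Its difference was -0.77 for CpG-STAT3dODN minus PBS (limma adjusted p = 0.0101, called in 19 of 20) and -0.98 for CpG-scrODN minus PBS (adjusted p = 0.0012, called in 20 of 20), and the list median was 0.13 for CpG-STAT3dODN minus PBS and 0.31 for CpG-scrODN minus PBS. In CpG-STAT3dODN minus CpG-scrODN 0 genes of these lists were called, and 3 of the STAT-induced genes had an unadjusted p under 0.05. In libraries labelled PBS the sums of B-cell, T-cell and monocyte markers were above those of every other library. Of the tested B-cell markers, 15 of 15 were called lower in CpG-scrODN minus PBS and 14 of 15 in CpG-STAT3dODN minus PBS, counts that the filter on low values favours. The part of these cells in the levels of Asb2, Bcl6, Cebpd and Il12a was not tested.

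**Figure D5:**
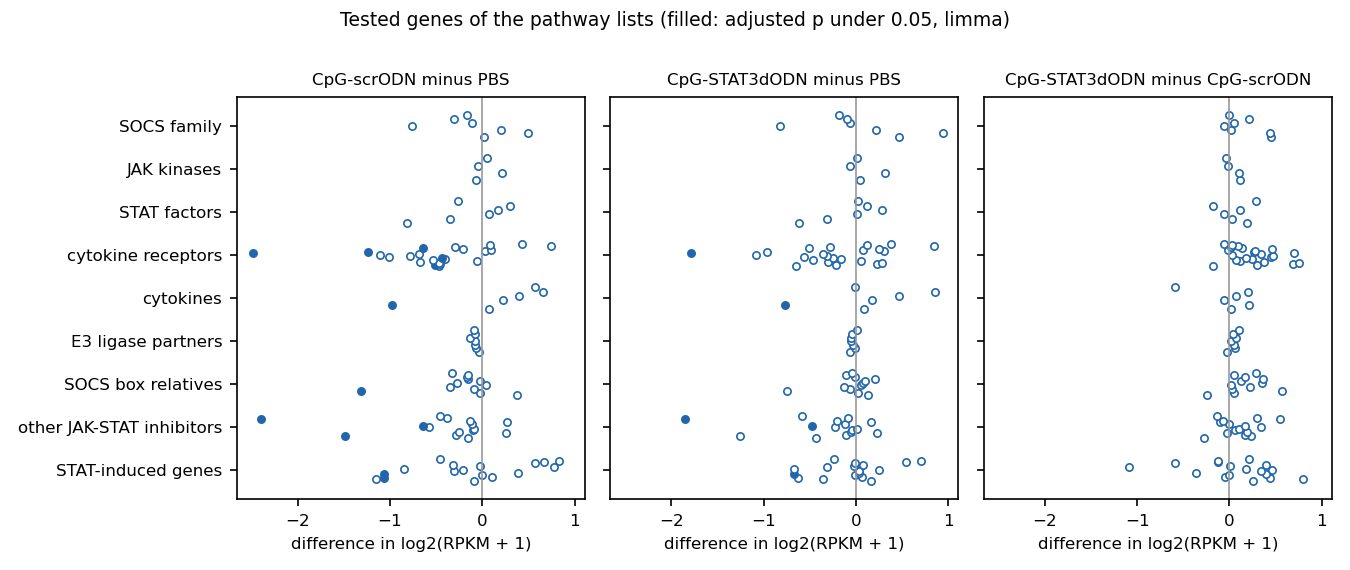
Difference in log2(RPKM + 1) for the tested SOCS members and for the genes of 8 pathway lists in the 3 comparisons, with called genes filled. The filled points are all below 0 and occur among receptors, cytokines, SOCS box relatives, other inhibitors and STAT-induced genes, and no SOCS member, JAK kinase, STAT factor or ligase partner is filled. Over all tested genes, 440 of 452 calls against PBS were lower for CpG-scrODN and 199 of 202 for CpG-STAT3dODN.

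For each of the 7 tested members, the 3 genes with the most similar profile over the 12 libraries were found among 10203 genes. Each r is a description without a test, since the libraries fall into groups and the values are the highest of many. Socs1 was closest to Rnf167, Dxo and D17H6S56E-5, with Pearson r of 0.95, 0.944 and 0.905. Socs2 was closest to Zscan21 (r = 0.978), Vwa5a (0.965) and Nipal3 (0.951). The genes nearest to Socs3 were Sclt1, Pmvk and the chemokine Ccl4, with r of 0.939, 0.934 and 0.916. Cish was closest to the GTPase gene Rhoc, to Rnf181 and to the transcription factor Bhlhe40, with r of 0.961, 0.957 and 0.948. Socs6 went with Pgpep1, Hyls1 and Ttpal at r of 0.966, 0.959 and 0.958, and Socs7 with Hpse, Kdm2b and Cbx6 at 0.925, 0.922 and 0.919. Socs4 was closest to Pum2, Dtx3l and Sbno1, with r of 0.979, 0.938 and 0.937. Without the 2 libraries low in Fos, r for Sbno1 with Socs4 was 0.661 and for Dtx3l 0.773, the lowest among these genes, while for Ccl4 with Socs3 it was 0.98.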

How the data were processed

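RNA was sequenced from 12 libraries, and the authors deposited RPKM per gene symbol in 1 file per library, per the file headers. The submitters' processing notes name mm10, TopHat 1.3.1 and Partek 6.12.0713 without their roles, and counting rules, strand and annotation were not given in the sources used here. Symbols had been turned into dates in 27 features. Depth was estimated from 978 to 1082 single-transcript genes. Of their low values, 63.3 to 66.5% were whole reads within 0.05 of a read, too few to recover counts, so no count test was run. No 2 libraries were identical.

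Values were analysed as log2(RPKM + 1), which understates the change of low genes. One limma 3.58.1 model (R 4.3.3, intensity trend) held all 3 labelled groups, and genes with Benjamini-Hochberg adjusted p under 0.05, two-sided over 10886 genes, were called. Exact permutation tests (two-sided, 24 in all, raw p) compared 4 with 4 libraries. Intervals are 95% and not adjusted. Members, gene lists and the rule for named genes (all members, up to 4 called genes per list, the JAK kinases and STAT factors, and the 3 most similar genes per member) were chosen with earlier results of these data known. Alternatives were other pseudocounts, filters, scalings and designs, and libraries left out. One item that the rule names is not reported here.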

Additional observations from a re-analysis of the deposited data

Results flagged for a closer look

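In groups of 4 libraries, a value was looked at again where its gap to the nearest other library, as a share of the group's whole range, passed Dixon's 95% critical value. Of 24 member-group combinations, 3 met this, and chance gives about 1 in 20. All 3 were PBS replicate 4, one of the libraries low in Fos. Socs5 was at 1.63 RPKM there, against 0.436 to 0.512 RPKM in the other libraries labelled PBS. Socs6 was at 4.3 RPKM, against 2.57 to 2.79, and Cish was at 50.3 RPKM, against 19.7 to 22.1. Whether the low Fos of that library has a part in these values was not tested.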

How the results depend on the processing

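Of 420 recomputed member values, 393 kept their direction and their side of the threshold, 24 changed sign and 3 passed the threshold. Those that changed sign had reported differences of at most 0.102 in size. Genes called in CpG-scrODN minus PBS numbered 452 as reported, 464 with a pseudocount of 0.1, 655 without the filter, 393 with quantile normalization, 438 with size factors and 686 without the libraries of low Fos, and 279 to 560 when 1 library was left out. In CpG-STAT3dODN minus PBS there were 202 as reported, 188, 290, 184 and 200 under the same first 4 settings, 78 when only the 2 groups compared were fitted, 337 without the libraries of low Fos, 392 with all 3 libraries numbered 4 left out (chosen after seeing the data), and 121 to 218 when 1 was left out. In CpG-STAT3dODN minus CpG-scrODN 0 were called as reported and 1 with only the 2 groups. Members called ranged from 0 to 1 in both comparisons with PBS when 1 library was left out, the 1 being Socs3. The cause was not tested. For the 17 calls among pathway genes, 263 of 340 recomputed values remained past the threshold and 77 did not, with 0 changes of sign.

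Differences that changed sign in CpG-STAT3dODN minus PBS were Socs6, 0.0095 with quantile normalization and -0.185 to 0.0297 over single omissions, and Socs4, 0.0431 without the libraries of low Fos and with those numbered 4 left out, and -0.121 to 0.0421 over single omissions. In CpG-STAT3dODN minus CpG-scrODN, Socs2 was -0.0089 with quantile normalization, -0.0129 with size factors, -0.0961 without the libraries of low Fos, -0.0451 with those numbered 4 left out and -0.0961 to 0.117 over single omissions. Socs7 was 0.0313, 0.0377 and -0.045 to 0.0313 under the last 3 of these, and Socs3 was -0.161 to 0.0983 over single omissions. In CpG-scrODN minus PBS, Cish was -0.105 to 0.331 over single omissions.

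With a replicate block, 523, 213 and 0 genes and 0 members were called. Deviations of the 12 same-numbered pairs correlated at -0.341 to 0.817, 5 over 0.1, and 3 of 12 libraries correlated best with their own number. Among libraries numbered 4, r was 0.817 for PBS with CpG-STAT3dODN, both low in Fos. It was 0.193 for PBS with CpG-scrODN and 0.151 for CpG-scrODN with CpG-STAT3dODN. What the numbers stand for is not stated, so whether they pair the samples cannot be settled from these values.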
